A study of Mus musculus with 6 samples.

Results

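The nuclear genes for subunits of the respiratory chain and ATP synthase were followed over 6 Affymetrix mouse expression arrays. Members were selected by a rule on gene symbols that used none of their values but was set with earlier results of these data known. The complex was also assigned by symbol alone, so Ndufa4 is counted in complex I here. Symbols begin with Nduf and a subunit letter and digit (complex I), are Sdha to Sdhd (complex II), or begin with Uqcr (complex III). The others begin with Cox4 to Cox8 (complex IV) or Atp5 (complex V, the ATP synthase). This gave 81 genes of 18194 with a probe set of a single symbol: 35 for complex I, 4 for complex II, 8 for complex III, 17 for complex IV and 17 for complex V. Where a gene had several probe sets, the brightest by its 6-array mean was used. The values are log2 intensities that the authors deposited after GCRMA, with a floor of 2.17; a gene was tested where its mean over the arrays compared reached 4.

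Of the 6 arrays, 4 came from MIN6 cells, an insulin-secreting mouse beta-cell line, and 2 from mouse pancreatic islets. All 4 MIN6 samples had received an adenovirus, at 250 infectious particles per cell, and were kept in DMEM (glucose at 4.5 g/l, serum at 2%) over the 48 h of infection. The vector expressed green fluorescent protein (AdGFP, 1 array), miR-7a (AdmiR7a, 2 arrays, an infection done in duplicate) or miR-7b (AdmiR7b, 1 array). Islets on a C57BL/6 background lacked miR-7a2 in beta cells through Lox and Cre (KO, 1 array) or were wild type (WT, 1 array); the promoter of the Cre, the age of the mice and whether islets of several mice were pooled are not given in the sources used here. Islets also hold alpha, delta and other cells in which the gene was not deleted. No label says whether the AdmiR7a duplicates were infected independently, and p-values measure the spread between these arrays, which may be technical.

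The respiratory chain sits in the inner mitochondrial membrane. Complexes I and II pass electrons from NADH and succinate to ubiquinone, complex III passes them on to cytochrome c and complex IV to oxygen, and the proton gradient that complexes I, III and IV build drives ATP synthesis by complex V. In beta cells the rise in ATP after glucose closes ATP-sensitive potassium channels, which depolarizes the cell and leads to insulin release. Most subunits are made from nuclear genes and imported, while a few core subunits are encoded in mitochondrial DNA.

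The mature sequences of the overexpressed microRNAs are shown because they set what AdmiR7a and AdmiR7b have in common (RefSeq, GRCm38.p6). The capitals mark the seed, bases 2 to 8 from the 5′ end, which was the same in both; along their shared length the sequences differed by A10U, with the base of miR-7a first.
mmu-miR-7a-5p: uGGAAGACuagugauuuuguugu
mmu-miR-7b-5p: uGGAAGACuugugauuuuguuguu

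Promoters are shown for Sdha, the subunit gene that rose with miR-7, for Sdhd and Atp5o, which fell, and for Cox7a1, the gene with the largest difference between MIN6 and islets. Each run is the 250 bases upstream of the RefSeq start, written 5′ to 3′ on the strand of the gene (GRCm38.p6). The capitals mark matches on either strand to 5 motifs: NRF1 (GCGCA, then any base, and next GCGC), the ETS motif bound by GABP (CCGGAAG), YY1 (AANATGGCG), CRE (TGACGTCA) and the core promoter box TATAAA, called TATA here. No sequence was printed for Cox6a2.
Sdha, chr13:74350241-74350490, minus strand: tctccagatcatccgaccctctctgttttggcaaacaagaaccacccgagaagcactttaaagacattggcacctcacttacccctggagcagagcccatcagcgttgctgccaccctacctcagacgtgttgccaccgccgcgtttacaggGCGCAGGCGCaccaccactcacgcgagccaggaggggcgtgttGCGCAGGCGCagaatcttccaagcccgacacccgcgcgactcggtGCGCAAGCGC
Sdhd, chr9:50603850-50604099, minus strand: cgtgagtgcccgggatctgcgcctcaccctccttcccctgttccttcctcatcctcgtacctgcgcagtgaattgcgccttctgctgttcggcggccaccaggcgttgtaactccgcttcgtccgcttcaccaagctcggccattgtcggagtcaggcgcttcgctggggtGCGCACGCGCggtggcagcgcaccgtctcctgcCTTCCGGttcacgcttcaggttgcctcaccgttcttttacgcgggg
Atp5o, chr16:91931631-91931880, minus strand: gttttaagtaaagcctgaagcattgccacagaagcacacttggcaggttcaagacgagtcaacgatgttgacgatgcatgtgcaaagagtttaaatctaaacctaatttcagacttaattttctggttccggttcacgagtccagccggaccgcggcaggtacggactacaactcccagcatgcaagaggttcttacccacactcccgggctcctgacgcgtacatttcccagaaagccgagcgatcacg
Cox7a1, chr7:30183921-30184170, plus strand: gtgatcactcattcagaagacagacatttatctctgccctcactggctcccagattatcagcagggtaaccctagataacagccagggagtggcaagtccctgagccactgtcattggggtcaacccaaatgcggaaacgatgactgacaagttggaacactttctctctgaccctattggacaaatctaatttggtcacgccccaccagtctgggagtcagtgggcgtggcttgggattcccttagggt

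The Sdha run held 3 NRF1 matches and the Sdhd run 1 NRF1 and 1 ETS match, whereas the Atp5o and Cox7a1 runs held none of the 5 motifs. RefSeq promoters were found for 66 of the 81 members (71 promoters). The NRF1 letters occurred in 16.9% of them against 3.74% of all 32851 promoters of the table, and the ETS letters in 16.9% against 6.91%. YY1 letters were found in 4.23% against 1.12%, CRE letters in 4.23% against 1.55% and TATA letters in 11.3% against 12.4%. The median G and C content was 56.4% in member promoters and 52.4% in all. These are matches of letters, and no array measured binding of a factor.

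Most members were read near the top of the scale: 62 or 63 of the 81 lay above 12 (log2) on each MIN6 array, 55 on the KO and 56 on the WT array. Of 8 beta-cell markers, Ins2 (15.8 on average in both systems), Iapp (16.1 in both) and G6pc2 (14.9 in both) were read alike in MIN6 and islets. Pdx1 was higher in MIN6 (12.5 against 11.9). Lower in MIN6 were Nkx6-1 (10.4 against 11.2), Ucn3 (10.7 against 12.4), Slc30a8 (11.6 against 14.2) and the glucose transporter gene Slc2a2 (2.85 against 14.3). All 4 delta and PP cell markers were lower in MIN6: Sst (9.4 against 14.7), Ppy (6.1 against 15.7), Pyy (4.9 against 15.6) and Hhex (2.2 against 9.0). Of 4 measured alpha-cell markers, Gcg (13.0 against 16.3) and Irx2 (3.4 against 5.4) were lower in MIN6. Irx1 was alike (5.3 against 5.2) and Ttr higher (16.1 against 15.3). The islets held transcripts of cells that MIN6 lacks. Of 5 endothelial markers 4 lay under 4 in MIN6 and 0 in islets, and of 6 immune markers 5 and 0. Of 7 measured acinar markers 7 and 6 lay under 4, of 5 ductal markers 4 and 4, and of 5 stellate markers 5 and 3. As a measure of RNA quality, the actin control's 3′ probe set exceeded its 5′ one by between 1.43 and 1.48 (log2) in MIN6, by 2.65 in KO and by 2.77 in WT islets. The Gapdh control gave at most 0.05 in MIN6, 0.83 in KO and 0.68 in WT islets.

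The first comparison addresses the response of these genes to raised miR-7. Few of them moved: of 75 members tested, 1 rose and 4 fell when the 3 miR-7 arrays were compared with the AdGFP array (limma, adjusted p below 0.05 after Benjamini-Hochberg correction across the array), which is 6.67%. Over all 10367 genes 26.2% passed the same test, 14.0% higher and 12.1% lower. With no filter on low values this gap was absent, as 4 of 81 members and 5.18% of all genes passed. With the filter, the members that fell were the complex IV genes Cox6a2 and Cox7c, the complex II gene Sdhd and the complex V gene Atp5o. The one that rose was the complex II gene Sdha. None of the 33 tested genes of complex I and none of the 8 of complex III passed (0 of each), with 3 and 0 at an unadjusted p under 0.05 in limma. The median difference was 0.01 (log2) over the 75 members and 0.06 over all genes; the members' median was -0.02 with arrays centred and -0.0041 with quantile normalization again.

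The 70 members that did not pass had differences between -0.37 and 0.43, and the SE over all 75 was between 0.07 and 0.22 with a median of 0.09. The 95% interval of the difference lay inside 0.58 (log2) in both directions for 66 of 75 members (88.0%), against 50.3% of all genes. Without any one of the miR-7 arrays the same test called 0 members and 0 genes in all, with 1 residual degree of freedom, so the loss says nothing about single members. The differences kept their size without each array: Sdha between 0.41 and 0.43, Sdhd between -0.51 and -0.45, Cox7c between -0.71 and -0.64 and Atp5o between -0.46 and -0.42. Each difference also rests on the lone AdGFP array, which is assumed to vary like the others, and a deviation of that array and an effect of miR-7 cannot be told apart.

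**Figure D1:**
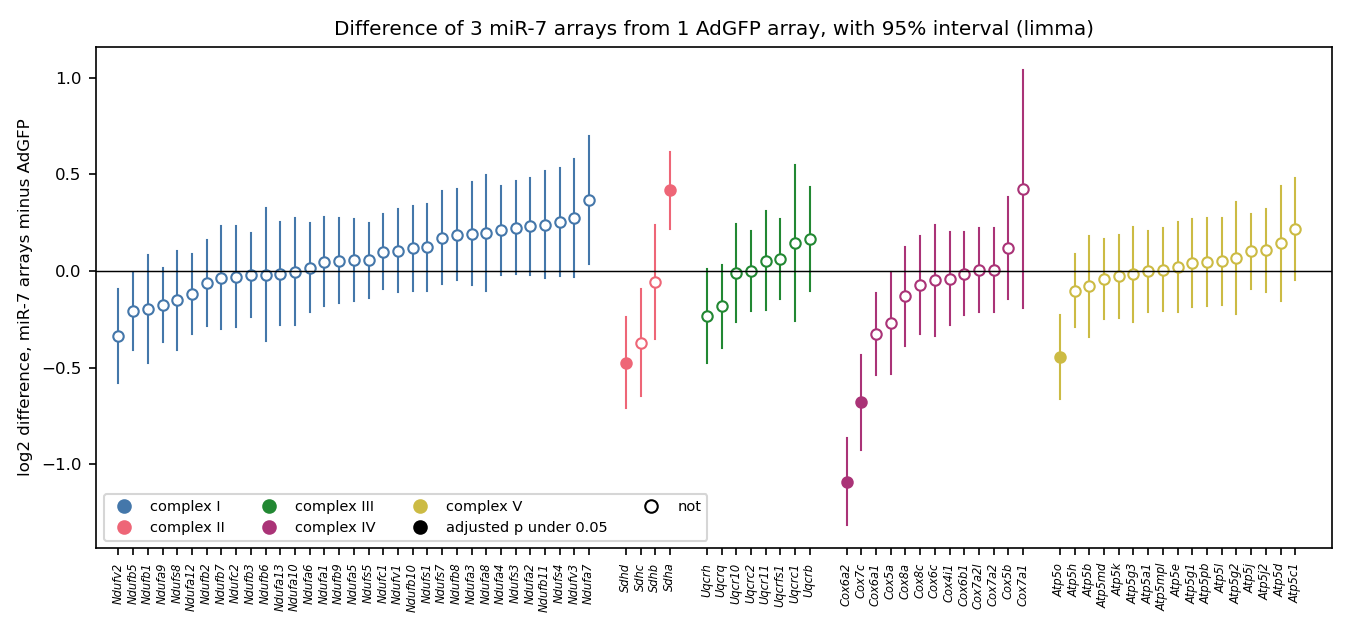
Each of the 75 tested members by complex, with its log2 difference between the 3 miR-7 arrays and the AdGFP array (point) and the 95% interval of limma (line). Filled points passed an adjusted p of 0.05: Sdha lies above 0, and Sdhd, Cox6a2, Cox7c and Atp5o lie below it.

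Cox6a2 encodes the subunit 6A isoform of complex IV that is best known from heart and skeletal muscle. Its log2 intensity was 8.63 with AdGFP, 7.48 and 7.59 with AdmiR7a and 7.53 with AdmiR7b. The miR-7 arrays lay close together and well below AdGFP. Cox6a2 thus fell by 1.09 ± 0.08 (log2, SE; limma adjusted p = 0.0120), a level 2.13-fold lower. Without AdmiR7a replicate 1, AdmiR7a replicate 2 or AdmiR7b the difference was -1.06, -1.12 and -1.09, with limma adjusted p of 0.065, 0.0784 and 0.0666. Its other probe set read 7.03 with AdGFP and 5.66, 5.33 and 5.64 with miR-7, and fell by 1.49 ± 0.17 (limma over all probe sets, adjusted p = 0.0297). Over probe sets 16.3% of all tested passed, and 8 of 138 of the members' probe sets.

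In islets, where miR-7a2 was removed in place of being raised, Cox6a2 was higher in KO (9.54) than in WT (9.06), a difference of 0.48 or 1.4-fold. This was the largest positive KO minus WT difference among the members, and the other probe set gave 0.68 (8.14 against 7.46). With 1 array per genotype there was no replicate check.

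Cox6a1, the isoform of the same subunit found in most tissues, read 15.6 with AdGFP, 15.3 and 15.2 with AdmiR7a and 15.3 with AdmiR7b. Its difference of -0.33 ± 0.08 missed the threshold (limma adjusted p = 0.0503). The call depended on the setting: the adjusted p was 0.0423 with a filter at 6 and 0.0256 with an intensity trend. A second Cox6a1 probe set read 14.2 with AdGFP and 13.6, 13.5 and 13.5 with miR-7, and fell by 0.65 ± 0.08 (limma over all probe sets, adjusted p = 0.0300).

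Cox7c, a small structural subunit of complex IV, was read at 5.83 with AdGFP, 5.08 and 5.22 with AdmiR7a and 5.16 with AdmiR7b. All miR-7 arrays were lower than AdGFP, and Cox7c fell by 0.68 ± 0.09 (limma adjusted p = 0.0189). With no filter on low values the limma adjusted p was 0.0757, which ends the call. This probe set stood far below the top of the scale, unlike those of most members, and its ID ends in s, the Affymetrix mark for probes that match more than a single transcript.

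Complex II links the citric acid cycle to the respiratory chain, and of its 4 subunit genes 1 rose and 1 fell. Sdha, the flavoprotein that oxidizes succinate, read 11.9 with AdGFP, 12.3 on both AdmiR7a arrays and 12.3 with AdmiR7b, and rose by 0.42 ± 0.07 (limma adjusted p = 0.0287). The rise was seen by 1 probe set: a second one with a similar signal stood at 11.4 with AdGFP and 11.4, 11.4 and 11.5 with miR-7, a difference of 0.01 (adjusted p = 0.911 over all probe sets). Averaged over its probe sets above and below the filter, Sdha stood at 0.07 (limma adjusted p = 0.523).

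Sdhd, a membrane anchor of complex II, read 11.7 with AdGFP, 11.3 and 11.2 with AdmiR7a and 11.3 with AdmiR7b. It fell by 0.47 ± 0.08 (limma adjusted p = 0.0304; 0.0965 with no filter, which ends the call). The second probe set gave a like difference of -0.43 (limma over all probe sets, adjusted p = 0.0814). The other anchor, Sdhc, read 10.8 with AdGFP and 10.5, 10.4 and 10.3 with miR-7, a difference of -0.37 ± 0.10 (limma adjusted p = 0.0645). Sdhc passed with quantile normalization again, with arrays centred and with a filter at 6 (limma adjusted p = 0.0497, 0.0456 and 0.0457). The iron-sulfur subunit Sdhb stood at -0.06 ± 0.11 (limma adjusted p = 0.717).

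In complex V, Atp5o, the subunit of the stalk that holds the catalytic head in place (known as OSCP), read 13.2 with AdGFP, 12.8 and 12.7 with AdmiR7a and 12.8 with AdmiR7b. It fell by 0.45 ± 0.08 (limma adjusted p = 0.0293; 0.076 with no filter, which ends the call), 1.36-fold, and both of its probe sets were lower on every miR-7 array. The other 16 genes of the complex did not pass. The catalytic subunit genes Atp5a1 (0.00 ± 0.08) and Atp5b (-0.08 ± 0.09) and the genes Atp5g1 (0.04), Atp5g2 (0.07) and Atp5g3 (-0.02), which make the same mature c subunit of the rotor, stood near 0.

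In complex I the 6 core subunit genes measured had differences between -0.34 and 0.22 and the 27 tested accessory genes between -0.21 and 0.37. The lowest was Ndufv2 and the highest Ndufa7. Complex III lay between -0.23 (Uqcrh, the hinge protein) and 0.16 (Uqcrb). Single probe sets did not always tell the same story. Of 42 members with several tested probe sets, 12 had probe sets of opposite sign, with a median spread of 0.09. The widest spread, 1.33, belonged to Ndufs4, an accessory subunit of complex I. Its brightest probe set stood at 0.25 ± 0.10 (limma adjusted p = 0.138), while a dimmer one read 7.69 with AdGFP and 6.56, 6.79 and 6.5 with miR-7 and fell by 1.08 ± 0.15 (limma over all probe sets, adjusted p = 0.0334). Averaged over its probe sets Ndufs4 was lower, at -0.44 (limma adjusted p = 0.0333).

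**Figure D2:**
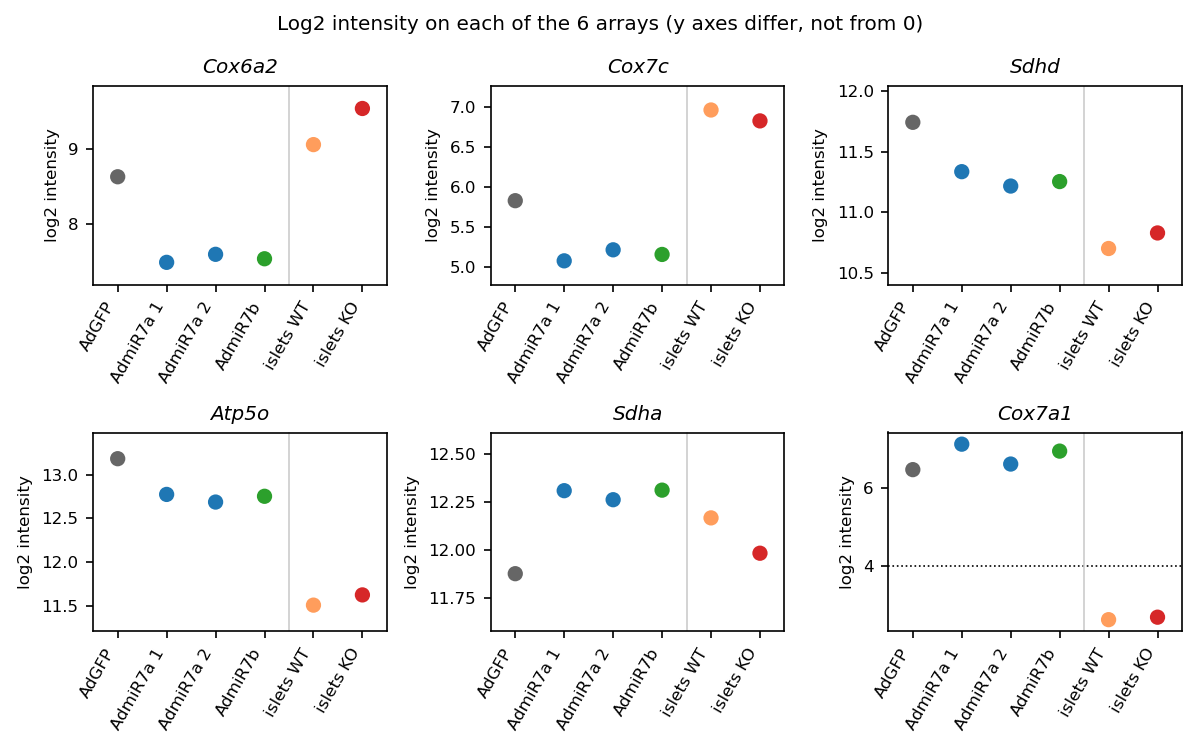
Log2 intensity on each of the 6 arrays for the 5 members that passed the test and for Cox7a1; each point is 1 array, the y axes differ and do not start at 0, and the dotted line, within range for Cox7a1 alone, marks the filter at 4. The 3 miR-7 arrays lie together on the same side of AdGFP for Cox6a2, Cox7c, Sdhd, Atp5o and Sdha, and Cox7a1 is below the filter in islets.

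Several isoforms known from other tissues were at or near the floor. Cox4i2, known from lung and hypoxia, Cox7b2 and Ndufa4l2 had means of 2.17 in MIN6 and in islets, and Cox6b2 and the muscle isoform Cox8b had means of 2.18 and 2.17 in MIN6 and 2.17 in islets. The partners Cox4i1 (-0.04 ± 0.09), Cox6b1 (-0.015 ± 0.078) and Ndufa4 (0.21 ± 0.08) did not pass in limma (adjusted p = 0.754, 0.904 and 0.137). Cox8c, a testis isoform, was read at 4.06 with AdGFP, just above the filter. Ndufb4 was also left out: its only probe set with a single symbol read 2.45 with AdGFP and 2.17 on the other arrays, whereas a probe set that lists it with the copies Ndufb4b and Ndufb4c read 12.6 with AdGFP. In all, 20 of the 75 tested members were read by a probe set of the s or x type, whose probes can match related transcripts.

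AdmiR7b asks whether the other miR-7 sequence acts alike, but the fit between the vectors left 1 residual degree of freedom. A lack of calls in that fit cannot show that the vectors act alike. Between the vectors, limma called 0 members and 0 genes in all (0%), with 0 members and 597 genes below 0.05 before adjustment; the smallest adjusted value was 0.739. The AdmiR7b minus AdmiR7a differences of the members lay between -0.15 and 0.22, with a median of 0.06 against 0.02 over all genes, and 60 of 75 were positive. Cox6a2 stood at -1.09 against AdGFP with either vector, Cox7c at -0.68 with AdmiR7a and -0.67 with AdmiR7b, Sdhd at -0.47 and -0.49, Atp5o at -0.45 and -0.43 and Sdha at 0.41 and 0.43. Both sets of values use the same AdGFP array.

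The members also shifted together between arrays of a single vector. AdmiR7a replicate 1 was above replicate 2 for 63 of 75 members, with a median of 0.08 and an SD of 0.10, while the median over all genes was 0.03 and the SD 0.20. AdmiR7b was above AdmiR7a replicate 2 for 62 of 75, with a median of 0.09, and above replicate 1 for 50, with a median of 0.02.

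Deleting miR-7a2 in beta cells is by design a change in the other direction, but how far miR-7 fell was not measured here. Mir7-1 encodes the same mature miR-7a. No member differed between KO and WT islets by 0.58 (log2) or more (0 of 74), while 9.10% of 10553 genes did. The differences lay between -0.46 and 0.48, with a median of 0.06 against -0.02 for all genes; 45 members were higher and 29 lower in KO. By complex the medians were 0.06 (I), 0.01 (II), 0.04 (III), 0.02 (IV) and 0.07 (V). There was no replicate check, and p-values cannot be given.

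After Cox6a2, the highest KO values were those of the complex I gene Ndufb9, 13.4 in KO and 13.1 in WT (0.34), and the complex III gene Uqcrq, 12.9 and 12.6 (0.31). The lowest were Ndufb1, 3.83 and 4.28 (-0.46), Cox8c, 4.35 and 4.76 (-0.41), and Ndufc2, 13.4 and 13.7 (-0.32). Ndufb1 and Cox8c were near the filter. For Ndufc2, other bright probe sets stood at 0.10 and 0.24, so its sign was not settled. Of the other members that passed in MIN6, Sdhd stood at 0.13, Atp5o at 0.12, Sdha at -0.18 and Cox7c at -0.14 in KO minus WT. A second probe set stood at 0 for Sdhd, -0.06 for Atp5o, -0.28 for Sdha and 0.14 for Cox7c. Of these genes, Sdha alone was on the opposite side in KO by both probe sets from its called rise with miR-7. That rise was seen by 1 probe set, while the second stood at 0.01 with miR-7. The signs of Sdhd, Atp5o and Cox7c were not settled. Beside these values, KO minus WT medians were 0.06 for 8 beta-cell markers (-0.43 to 0.73) and -0.20 for 5 endothelial markers (-1.11 to 0.14). They were 0.13 for 6 immune markers (-0.16 to 0.50), -0.01 for 4 alpha (-0.09 to 0.23) and 0.01 for 4 delta and PP markers (-0.09 to 0.10). The 2 stellate markers above the filter had a median of -0.27, and 1 acinar and 1 ductal marker stood at 0.02 and -0.05. The part of these cell types in the result was not tested.

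**Figure D3:**
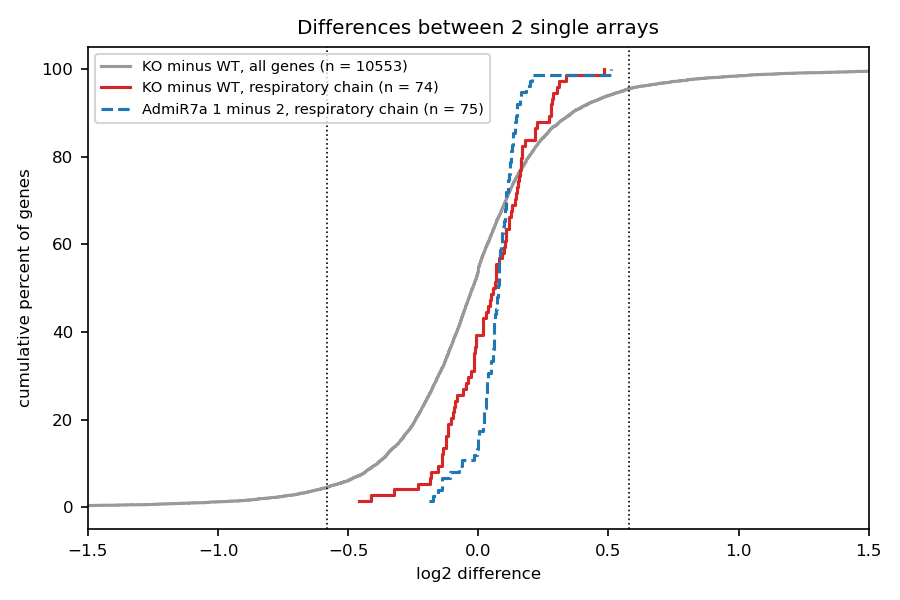
Cumulative percent of genes (y axis) by log2 difference (x axis) for KO minus WT islets over all 10553 genes and over the 74 members, and for AdmiR7a replicate 1 minus replicate 2 over 75 members; dotted lines mark 0.58 in both directions. All 74 members lie between the dotted lines, from -0.46 to 0.48.

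The widest contrast was between the cell line and the tissue. Of 75 members tested, 51 were higher in MIN6 than in islets and 4 were lower (limma, adjusted p under 0.05), that is 68.0% and 5.33%, with Cox7a1 among the higher, which lay under the filter in islets; over all 10635 genes tested the shares were 35.4% and 32.2%. The median difference was 0.48 (log2), against 0.04 over all genes. In complex V 15 of 17 were higher and 0 lower, with a median of 0.69. Complex III had 6 of 8 higher (median 0.61), complex I 22 of 33 (0.46) and complex II 1 of 4 (0.18). In complex IV 7 of 13 were higher and 4 lower (0.37).

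The difference was modest for most: 10 members were higher by at least 1 (log2). Ndufs4 read between 11.67 and 11.98 in MIN6 and 10.2 and 10.3 in KO and WT islets, 3.06-fold higher in MIN6 (1.61 ± 0.12, limma adjusted p = 5.98e-05). Uqcrfs1, the Rieske iron-sulfur protein that hands electrons to cytochrome c1, read between 13.0 and 13.1 in MIN6 and 11.6 on both islet arrays, 2.71-fold higher (1.44 ± 0.08, limma adjusted p = 2.0e-05). Atp5o was 2.44-fold higher in MIN6 (1.28 ± 0.16) and Ndufa3 2.23-fold (1.16 ± 0.11), with limma adjusted p of 0.000623 and 0.0002. In none of these 4 genes did a MIN6 array reach the range of the islets.

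Cox7a1, the heart and muscle isoform of complex IV subunit 7A, had the widest gap in measured level. It read 6.47 with AdGFP, 7.12 and 6.61 with AdmiR7a and 6.94 with AdmiR7b, but 2.67 in KO and 2.61 in WT islets, near the floor. The means were 6.79 in MIN6 and 2.64 in islets. Cox7a1 reached the filter over the 6 arrays only through MIN6, where it is high, so it had to differ, and its test is not given as support. Cox7a2, the isoform found in most tissues, was 0.44 ± 0.08 higher in MIN6 (limma adjusted p = 0.00373), and Cox7a1 (0.43 ± 0.22) and Cox7a2 (0.01 ± 0.08) did not pass with miR-7 (limma adjusted p = 0.227 and 0.965).

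All 4 genes lower in MIN6 belonged to complex IV. The MIN6 mean is taken over 3 miR-7 arrays and 1 AdGFP array, so it includes any fall with miR-7. With AdGFP alone, Cox6a2 read 8.63 against 9.06 in WT islets, and Cox7c read 5.83 against 6.97. Cox7c (-1.58 ± 0.23) and Cox6a2 (-1.49 ± 0.36) differed most, with limma adjusted p of 0.00114 and 0.0108; both were also lower with miR-7 within MIN6, and Cox6a2 did not pass without the KO array (-1.25, limma adjusted p = 0.100). Cox7a2l, which joins complexes III and IV into supercomplexes, read between 11.8 and 11.9 in MIN6 and 12.7 and 12.8 in KO and WT islets (-0.87 ± 0.09, limma adjusted p = 0.000226), and all 3 of its probe sets were lower in MIN6. Cox8c (-0.54) stood near the filter. Atp5a1 stood at 0.02 ± 0.09 (limma adjusted p = 0.836), but its other 2 probe sets stood at 0.69 and 1.30.

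MIN6 and islets differ in cell types, culture, virus and the RNA measures given above, and whether fewer cells of a type or less RNA per cell lowers a gene in islets cannot be told apart. The part of these differences in the result was not tested. When the arrays were quantile-normalized again the median of the members was 0.38, with 46 higher.

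**Figure D4:**
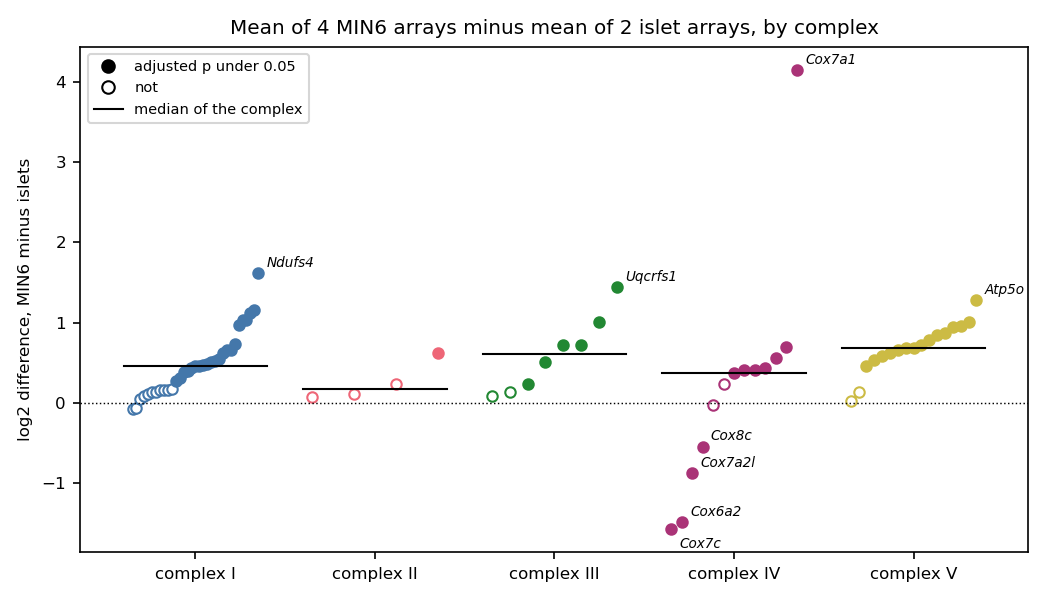
Log2 difference of the mean of 4 MIN6 arrays and the mean of 2 islet arrays (y axis) for the 75 tested members by complex (x axis); each point is 1 gene, filled where the limma adjusted p was under 0.05, and bars mark the median of the complex. Complexes I, III and V lie mostly above 0, with 22, 6 and 15 genes higher, and the 4 lower genes are all in complex IV.

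Other mitochondrial genes were counted from fixed lists. Of 43 tested assembly factor genes 4 rose and 4 fell with miR-7 (18.6%, beside 26.2% of all genes). Cox20 (0.77 ± 0.08) and Cox11 (0.75 ± 0.08), which serve the making of complex IV, rose, and Cox10 (-0.65 ± 0.11), an enzyme of heme A synthesis, and the complex I factor Ndufaf4 (-0.59 ± 0.09) fell (limma adjusted p = 0.0151, 0.0153, 0.0297 and 0.0244). Of 76 genes of the mitochondrial ribosome 4 rose and 2 fell (7.89%, beside 26.2%). In MIN6 against islets 62 of these 76 were higher (81.6%, beside 35.4% of all genes) and 5 lower (6.58%, beside 32.2%), with a median of 0.69 against 0.04 over all genes.

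Among 22 genes of pyruvate entry and the citric acid cycle, 1 rose and 4 fell (22.7%), a share near the 26.2% of all genes. Cs, citrate synthase, fell by 0.63 ± 0.07, the pyruvate dehydrogenase subunit Pdhx fell by 0.83 ± 0.15, and the regulators Pdk3 and Pdp1 fell by 1.07 ± 0.15 and fell by 0.87 ± 0.15, while Sucla2 of succinyl-CoA synthetase rose by 0.38 ± 0.08 (limma adjusted p between 0.0166 and 0.0397). Of 9 carriers and subunits outside the symbol patterns 1 passed (11.1%, beside 26.2%): Gpd2, the glycerol phosphate dehydrogenase that feeds electrons to ubiquinone, fell by 1.17 ± 0.08 (limma adjusted p = 0.0108) and was 0.86 higher in KO islets. Cycs (-0.09) and Cyc1 (-0.31) did not pass (limma adjusted p = 0.483 and 0.135). Of 18 import and cristae genes 2 fell (11.1%, beside 26.2% of all genes), the outer membrane channel gene Vdac1 (-1.10 ± 0.13) and the receptor gene Tomm22 (-0.81 ± 0.08; limma adjusted p = 0.0174 and 0.0137).

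Of 18 regulators of mitochondrial biogenesis 6 rose and 2 fell (44.4%, beside 26.2% of all genes, 14.0% higher and 12.1% lower). The mitochondrial DNA helicase gene Twnk rose by 1.01 ± 0.14, Tfb1m by 0.78 ± 0.12 and Gabpa by 0.31 ± 0.07, while the nuclear receptor gene Esrrg fell by 0.98 ± 0.18 and Pprc1 fell by 0.52 ± 0.08 (limma adjusted p = 0.0207, 0.0245, 0.0476, 0.0328 and 0.0238). Nrf1 stood at 0.03 ± 0.20 (limma adjusted p = 0.917) and was lower in MIN6 than in islets (-3.38 ± 0.16, limma adjusted p = 7.68e-06). Ppargc1a, a coactivator of mitochondrial biogenesis, did not pass with miR-7 (-0.12 ± 0.15, limma adjusted p = 0.572) and read 7.82 on average in MIN6 and 3.52 in islets, under the filter. None of the 13 mitochondrially encoded genes of the fixed list was analysed here.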

How the data were processed

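The authors deposited log2 probe set intensities made with GCRMA, and GCRMA and affy are the tools listed, unversioned, in the submitters' processing notes; which arrays were normalized together is not given in the sources used here. Of 45101 probe sets 34958 had 1 gene symbol, 932 several and 9211 none; only the first kind was used. Genes with a mean under 4 (log2) over the arrays compared were left out. limma 3.58.1 (R 4.3.3) was fitted to all genes, with p-values two-sided and adjusted by Benjamini-Hochberg over all genes tested: the 3 miR-7 arrays against AdGFP (2 residual degrees of freedom), a mean per vector for AdmiR7b against AdmiR7a (1), and a mean per system (4), whose spread includes the treatments and genotype. KO against WT islets, with 1 array each, was counted at a log2 size of 0.58. The number of arrays limits the precision. The fits were tested on simulated data with 200 changed genes, and as no outcome is given here, this is not offered as support. The text names members called with miR-7 (up to 3 each way per complex), the 3 highest and lowest in KO, the 5 highest and lowest in MIN6 against islets, isoform groups, Sdh genes, Atp5a1 and Atp5b; the others named were chosen after their values were seen. Members and lists were chosen with earlier results of these data known.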

Additional observations from a re-analysis of the deposited data

How the results depend on the processing

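Brackets give the share of all genes called in the same setting. The 5 members called with miR-7 (26.2%) became 7 with averaged probe sets (26.3%) and with quantile normalization again (30.5%). The count was also 7 with a filter at 6 (33.2%) and with an intensity trend (28.4%). Choosing probe sets within the system left 5 (26.2%). With no filter 4 of 81 members were called (5.18%), so the gap to all genes seen with the filter was absent. There 2 of the 5 (Cox6a2 and Sdha) were kept, 3 lost and 2 gained (Ndufa9 and Ndufb4, the latter near the floor). The count was 3 of 52 with probe sets whose ID has no x, s or a mark (25%), and 8 with arrays centred on their median (28.7%). It was 2 when a log2 size of 0.58 was also asked (16%). Over single probe sets it was 8 of 138 (16.3%), an alternative added after the data were seen. For AdmiR7a alone against AdGFP, with a mean per vector, 0 members and 0 genes in all were called, which says nothing about the members. Leaving out each miR-7 array gave 0 members and, as stated above, 0 genes in all. Between MIN6 and islets 55 of 75 members were called, beside 67.5% of all genes. When AdGFP was compared with WT islets by size alone, the count was 36 of 75, with 33 higher, beside 57.3% of all genes. Under the other alternatives it lay between 41 (of 52 tested, beside 66.8%) and 57 (of 75, beside 68.3%). With a MIN6 array left out it was 50 to 55, beside 60.7% to 75.8% of all genes. Without the KO or the WT islet array the median difference was 0.52 or 0.45 (log2). The 0 members past the size in KO against WT islets became 1 with averaged probe sets (Cox6a2, 0.58), beside 7.44% of all genes. Between the vectors the 0 members called stayed 0, as did the 0 genes in all. With averaged probe sets Ndufs4 turned from 0.25 to -0.44 with miR-7, and Atp5g2 from 0.79 to -0.0698 between MIN6 and islets; both means include dimmer probe sets. The cause of the other changes was not tested. No paired analysis was possible because no label links an array of one group to an array of another.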
